A study of Mus musculus with 9 samples.

Results

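Genes of the DNA damage and p53 response were examined in RNA from the mediobasal hypothalamus of mice in which the Snord116 cluster was deleted by an adeno-associated virus (AAV) that carries Cre recombinase. The 9 genes, of 13588 entries in the expression table, were the kinase gene Atm, Trp53 itself, its inhibitor Mdm2 and 6 genes known as p53 targets, Cdkn1a, Ccng1, Gadd45a, Trp53inp1, Phlda3 and Bax. The set was chosen by the measured Atm level, which was higher over the AAV-Cre libraries than in AAV-GFP. The Atm difference is therefore described below without a test. The others were taken by name, with earlier results of these data known, so that their p-values are not free of that knowledge.

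All mice were males of the strain labelled C57/BL6 that carried the floxed allele Snord116tm1Uta/J, and all were injected with AAV into the mediobasal hypothalamus on both sides as adults. There were 3 mice with AAV-GFP and 6 with AAV-Cre, and tissue was taken 10 weeks later. The AAV-Cre mice fell into 3 with the weight label obese and 3 with the weight label nonobese. The titles of these 6 libraries say the reverse: those with the nonobese weight label have obese in the title, and those with the obese weight label do not. The weight label is followed here, and if the titles were right every direction between both AAV-Cre groups would turn and their comparisons with AAV-GFP would exchange labels. The controls carried the floxed allele and a virus too, but AAV-Cre and AAV-GFP also differed in promoter and in titre, so that Cre, promoter and vector dose cannot be told apart. Each library came from laser-captured tissue of single fresh-frozen slices, with the AAV-Cre capture guided by Cre staining of neighbouring sections. Captured tissue holds many cell types, and more cells of a type and more RNA per cell cannot be told apart in any value below.

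The p53 protein is a transcription factor that is kept low in unstressed cells because Mdm2, a ubiquitin ligase, marks it for degradation. After a DNA double-strand break the kinase Atm phosphorylates p53 and Mdm2, p53 accumulates, and it binds DNA as a tetramer at sites made of a pair of decamer half-sites. Its targets stop the cell cycle (Cdkn1a, which encodes p21), promote cell death (Bax) and feed back on p53 itself (Mdm2, Ccng1, Trp53inp1). Activation of p53 is largely a matter of protein stability, so that the Trp53 transcript is a less direct readout than the targets.

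The upstream sequences are shown so that Ccng1 can be compared with Cdkn1a, the best known p53 target, and with the other members that held a p53 half-site. Ccng1 was higher in every AAV-Cre than in every AAV-GFP library, as were 0.933% of all entries, and did not pass there (limma, FDR 0.991). The gap was narrow, with a lowest AAV-Cre signal of 26.5 and a highest AAV-GFP signal of 26.2. Nothing is read from it, since that comparison chose the set. RefSeq promoter sequences (GRCm38.p6) were found for 8 of the 9 members; Trp53inp1 was not among them. In the 250 bases before each start a match to the p53 half-site was searched, and of all 32851 promoters 7.13% held one. Of the 8 members 6 held one, and Atm and Phlda3 did not. The half-site motif is its own reverse complement, so that 1 search covers both strands. The half-sites are in capitals below, and each line runs 5′ to 3′ on the strand of the gene. Cdkn1a (chr17:29090729-29090978, plus strand) held 2 exact half-site matches, 73 and 51 bases before the start. Their spacer lay within the 0 to 13 bases of a full site, an arrangement found in 0.0639% of all promoters. The bases right after the second match, tgacatgttc, miss the motif at their first base only, where it asks for A or G. They are therefore not in capitals. Which of these stretches p53 binds was not tested. The table also held a second Cdkn1a promoter (chr17:29093519-29093768), which had 0 half-sites and is not shown. Ccng1 (chr11:40755287-40755536, minus strand) held 1, 185 bases before the start.
Cdkn1a: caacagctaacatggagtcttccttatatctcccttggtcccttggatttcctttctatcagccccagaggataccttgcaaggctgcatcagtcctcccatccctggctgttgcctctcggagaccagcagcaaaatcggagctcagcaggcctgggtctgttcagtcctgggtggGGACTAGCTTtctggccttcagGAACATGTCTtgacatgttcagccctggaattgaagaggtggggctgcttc
Ccng1: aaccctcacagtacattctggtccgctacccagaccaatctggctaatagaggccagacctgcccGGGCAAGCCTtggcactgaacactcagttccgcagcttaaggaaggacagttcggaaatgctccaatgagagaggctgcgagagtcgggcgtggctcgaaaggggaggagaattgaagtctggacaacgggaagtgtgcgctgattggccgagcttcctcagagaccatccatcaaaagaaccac
In the other 4 members the half-site is shown with 10 bases on each side. It began 75 bases before the start in Trp53 (chr11:69580274-69580303, plus), 186 in Mdm2 (chr10:117710925-117710954, minus), 201 in Bax (chr7:45467080-45467109, minus) and 40 in Gadd45a (chr6:67037428-67037457, minus).
Trp53: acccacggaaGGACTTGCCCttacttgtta
Mdm2: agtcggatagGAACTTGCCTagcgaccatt
Bax: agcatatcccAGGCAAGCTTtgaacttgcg
Gadd45a: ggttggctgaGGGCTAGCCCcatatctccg
A match is a description of the letters only, and binding was not measured in these libraries.

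Expression was given as signal, CPM scaled by library factors. The libraries held 3929672 to 5766994 reads over the entries of the table, and 3 reads, the upper limit that 0 reads allow, corresponded to a signal of 0.525 to 0.786. The vectors matched the labels: Cre had 1, 5 and 0 reads in AAV-GFP and 1011 to 37704 reads in AAV-Cre, and Gfp had a signal of 62.7 to 79.0 in AAV-GFP and 0 reads in every AAV-Cre library. None of the 17 annotated Snord116 genes had an entry, so that the deletion itself could not be checked. Of 11 mediobasal hypothalamus markers, Nr5a1 was at 0 in 4 libraries, Agrp in 2 and Fezf1 in 1, and the other 8 were detected in every library. Both libraries without Agrp were replicates 1 and 3 labelled obese. Nr5a1 was at 0 in these and in replicate 3 of AAV-GFP and of the nonobese label, and Fezf1 in replicate 3 of AAV-GFP. Replicates 1 and 3 labelled obese stood apart from the other 7 libraries. Averaged over 21 genes of the interferon response, log2(signal + 1) reached 6.86 and 6.42 in them, against 2.16 to 3.38 elsewhere, and the average of 8 leukocyte and T cell markers was 4.63 and 4.40, against 1.44 to 2.17. All 8 of these markers were detected in both libraries, and up to 3, Cd3e and Cd8a among them, were at 0 in the others. The average of 8 plasma and B cell markers was 7.49 and 8.06 there, 3.43 in obese-labelled replicate 2, 2.14 to 2.95 with the nonobese label and at most 1.21 in AAV-GFP, where 3 to 5 of the 8 were at 0.

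Atm, the kinase that signals double-strand breaks (ENSMUSG00000034218, GRCm38 chr9:53439149-53536740, minus strand), was the member whose values chose the set. Its signal was 40.9, 23.7 and 26.4 in AAV-GFP, 37.3, 80.6 and 66.2 in the mice labelled obese, and 56.0, 56.1 and 58.3 in those labelled nonobese. Of the 6 AAV-Cre libraries 5 lay above every AAV-GFP library, and replicate 1 labelled obese lay below replicate 1 of AAV-GFP. The means were 30.3 ± 9.23 (SD, n = 3) in AAV-GFP and 59.1 ± 14.2 (SD, n = 6) over AAV-Cre. The difference on the log2(signal + 1) scale, called log2 FC here, was 0.94 over all AAV-Cre, 0.96 for the obese label and 0.92 for the nonobese label. Between both AAV-Cre groups, which the choice did not use, the log2 FC of nonobese over obese was −0.04 (SE 0.32, 95% confidence interval −0.70 to 0.62, limma, FDR 0.973). The interval therefore leaves room for a difference of 0.62 to 0.70 on the log2 scale in either direction.

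Trp53 (ENSMUSG00000059552, chr11:69580359-69591873, plus strand) was low and varied widely within groups. Its signal was 2.99, 7.09 and 8.16 in AAV-GFP, 20.9, 14.1 and 4.41 with the obese label, and 11.4, 0 and 17.1 with the nonobese label. The groups overlapped, and 1 nonobese-labelled library had no Trp53 read. The log2 FC to AAV-GFP was 0.87 with the obese label (95% confidence interval −0.94 to 2.67, limma, FDR 0.803) and −0.13 with the nonobese label (FDR 0.999). The interval for the obese label thus holds both no change and a rise of up to 2.67 on the log2 scale. A processed pseudogene of Trp53 is annotated on another chromosome and had no entry, and reads shared with it would be uncertain.

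Mdm2, the ligase that limits p53 and is itself induced by it (ENSMUSG00000020184, chr10:117688875-117710758, minus strand), had similar means in the 3 groups. The signal was 41.4, 56.3 and 47.2 in AAV-GFP, 44.8, 64.2 and 29.3 with the obese label, and 47.1, 44.5 and 52.3 with the nonobese label. The 3 group means lay between 46.1 and 48.3. The log2 FC to AAV-GFP was −0.12 with the obese label (SE 0.31, 95% confidence interval −0.76 to 0.51, limma, FDR 0.928) and −0.002 with the nonobese label (95% confidence interval −0.64 to 0.64). In both comparisons the interval leaves out a doubling.

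**Figure D1:**
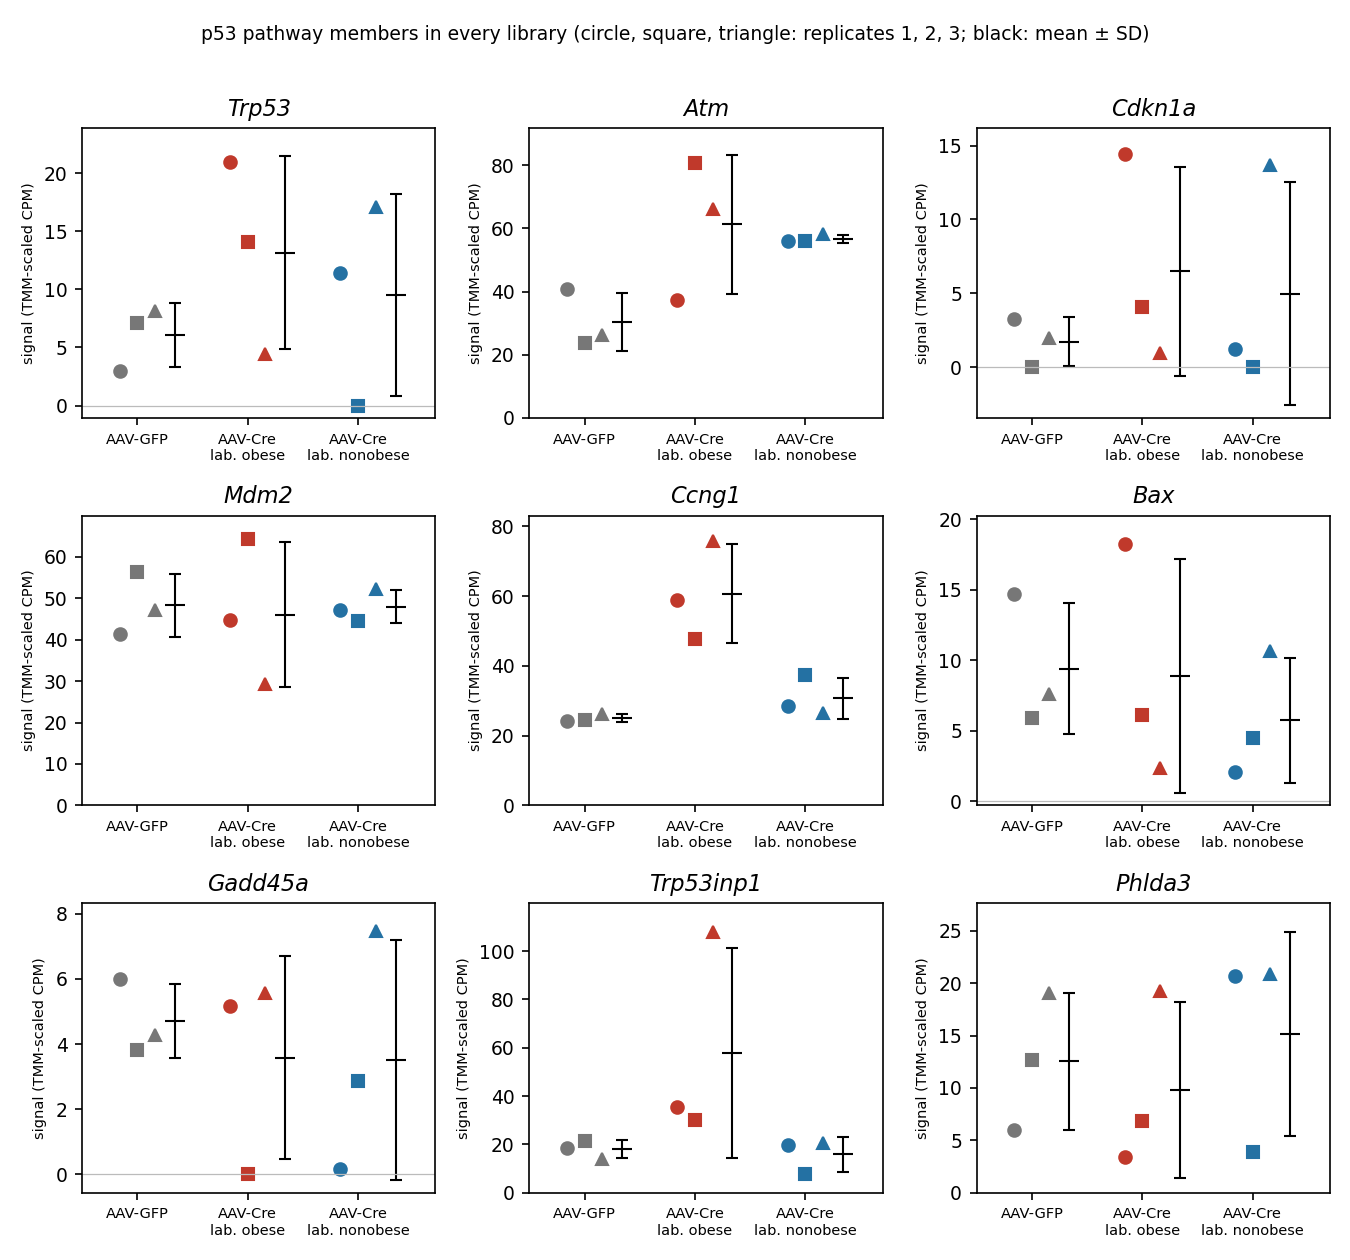
Signal (TMM-scaled CPM, linear axes) of the 9 genes in each of the 9 libraries, 1 panel per gene; symbols are libraries by replicate, and the black dash and line are the mean ± SD of the 3 libraries of a group. Ccng1 lies higher in all 6 AAV-Cre libraries than in the 3 AAV-GFP libraries, as do 0.933% of all entries, with a narrow gap (26.5 against 26.2). Trp53inp1 is highest with the obese label and reaches 108 in 1 library, and Mdm2 means lie between 46.1 and 48.3.

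Among the cell cycle and stress targets, Ccng1 and Trp53inp1 had the smallest p-values. Ccng1 encodes cyclin G1, which brings a phosphatase to Mdm2 (ENSMUSG00000020326, chr11:40748552-40755311, minus strand). Its signal was 24.2, 24.5 and 26.2 in AAV-GFP, 58.7, 47.7 and 75.7 with the obese label, and 28.3, 37.5 and 26.5 with the nonobese label. Every AAV-Cre library lay above every AAV-GFP library (0.933% of all entries), the closest at 26.5 against 26.2. The obese-labelled ones lay above the nonobese-labelled ones (6.65% of all entries). The means were 25.0 ± 1.09, 60.7 ± 14.1 and 30.8 ± 5.88 (SD, n = 3 each). With the obese label the log2 FC to AAV-GFP was 1.22 (SE 0.33, 95% confidence interval 0.55 to 1.89), which missed the study's threshold of an FDR of 0.1 in limma (FDR 0.128) and passed it in DESeq2 (1.30, FDR 0.0144). With the nonobese label it was 0.28 (95% confidence interval −0.40 to 0.95, FDR 0.999), and between both AAV-Cre groups it was −0.95 (95% confidence interval −1.62 to −0.28, limma, FDR 0.234).

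The call for Ccng1 depended on single libraries. Leaving out 1 library of either group gave a log2 FC of 1.05 to 1.38 and a limma FDR of 0.024 to 0.423. The lowest FDR was that without obese-labelled replicate 2, and the call was made there. Replicate 2, with a Ccng1 signal of 47.7, had an interferon mean of 2.84, inside the AAV-GFP range of 2.48 to 3.38. Its means lay above those of every AAV-GFP library for plasma and B cell markers (3.43, against at most 1.21), MHC class I genes (3.86, against at most 3.65), astrocyte markers (7.66, against at most 7.50) and endothelial markers (4.17, against at most 3.70). Its oligodendrocyte mean was lower (4.81, against at least 6.32). With replicates 1 and 3 left out, the log2 FC of this 1 library over AAV-GFP was 0.91 (limma, FDR 0.49).

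Trp53inp1 encodes a stress protein that acts with p53 and in autophagy (ENSMUSG00000028211, chr4:11156431-11174379, plus strand). The signal was 18.7, 21.4 and 14.0 in AAV-GFP, 35.5, 30.0 and 108 with the obese label, and 19.6, 7.60 and 20.7 with the nonobese label. The 3 obese-labelled libraries lay above the other 6, whose groups overlapped. The log2 FC of the obese label over AAV-GFP was 1.41 (SE 0.48, 95% confidence interval 0.41 to 2.40, limma, FDR 0.278), and that of the nonobese over the obese label was −1.67 (95% confidence interval −2.66 to −0.67, limma, FDR 0.130). DESeq2 called both differences (FDR 0.0707 and 0.0249). Leaving out 1 library gave 0.84 to 1.75 for the first (limma, FDR 0.0494 to 0.664) and −2.01 to −1.10 for the second (FDR 0.0178 to 0.497), and the lowest FDR of each was that without obese-labelled replicate 2. The highest library, at 108, was replicate 3, one of the pair with high interferon and leukocyte marker levels. Other marker lists also moved with the obese label. The mean of the 7 astrocyte markers was 7.66 to 8.31 in the 3 obese-labelled libraries and 6.95 to 7.50 in the other 6. Of the 7, 2 were called higher than in AAV-GFP by limma, against 0.422% of all entries, and 2 had a log2 FC below 0. The 7 endothelial markers had means of 3.89 to 4.22 against 2.91 to 3.87, with 0 called. Of the 10 microglia markers 2 were called higher, against the same 0.422%, with means of 4.06 to 6.11 against 3.45 to 4.16. Other lists fell against AAV-GFP, with 0 called. Of 7 oligodendrocyte markers 6 had a log2 FC below 0 (median −0.60), and of 8 neuron markers 7 did (median −0.23). The part of these cell types in the Trp53inp1 and Ccng1 values was not tested.

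Cdkn1a, which encodes the cyclin-dependent kinase inhibitor p21 (ENSMUSG00000023067, chr17:29090976-29100727, plus strand), was close to the detection limit. Its signal was 3.24, 0 and 1.94 in AAV-GFP, 14.4, 4.09 and 0.929 with the obese label, and 1.22, 0 and 13.7 with the nonobese label. One library of each AAV-Cre group was high, at 64 reads each, and both groups overlapped AAV-GFP. The log2 FC of the obese label over AAV-GFP was 1.20, with a wide 95% confidence interval of −0.96 to 3.35 (limma, FDR 0.755). The half-site matches printed above thus stand upstream of a gene whose level could not be measured with useful precision at this depth. The gene also overlaps an annotated transcript on the other strand that had no entry.

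Gadd45a, a stress protein of cell cycle arrest and DNA demethylation (ENSMUSG00000036390, chr6:67035096-67037457, minus strand), had a signal of 5.98, 3.83 and 4.27 in AAV-GFP, 5.17, 0 and 5.58 with the obese label, and 0.175, 2.88 and 7.47 with the nonobese label. The groups overlapped, with a log2 FC of −0.71 for the obese label (limma, FDR 0.854) and −0.73 for the nonobese label. Its exons overlap E230016M11Rik on the other strand, and the strand setting of the counting was not given in the sources used here. Phlda3, an inhibitor of Akt signalling (ENSMUSG00000041801, chr1:135766119-135769136, plus strand), had a signal of 5.98, 12.6 and 19.0 in AAV-GFP, 3.37, 6.81 and 19.3 with the obese label, and 20.6, 3.93 and 20.9 with the nonobese label. The 3 groups overlapped, and the log2 FC was −0.49 with the obese label (limma, FDR 0.867) and 0.10 with the nonobese label.

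Bax, which permeabilizes the mitochondrial outer membrane in apoptosis (ENSMUSG00000003873, chr7:45461697-45466898, minus strand), had a signal of 14.7, 5.94 and 7.57 in AAV-GFP, 18.2, 6.13 and 2.32 with the obese label, and 2.10, 4.45 and 10.7 with the nonobese label. The highest and nearly the lowest of the 9 values both carried the obese label. The log2 FC was −0.35 with the obese label (limma, FDR 0.920) and −0.75 with the nonobese label. Its exons overlap an annotated coding gene on the same strand, Gm45808, which had no entry.

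**Figure D2:**
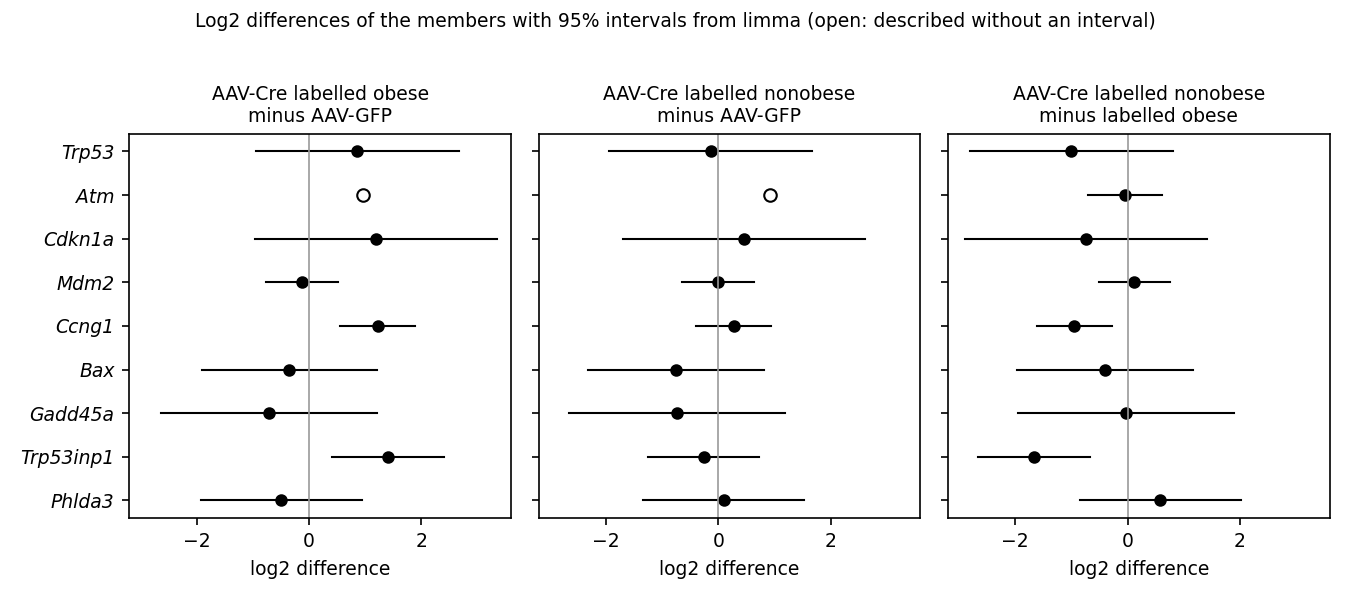
Log2 FC on the log2(signal + 1) scale for the 9 genes in the comparisons of AAV-Cre with AAV-GFP and of the nonobese with the obese label; lines are 95% confidence intervals from limma, and Atm, which chose the set, has no interval where AAV-GFP is used. With the obese label, the intervals of Ccng1 (0.55 to 1.89) and Trp53inp1 (0.41 to 2.40) lie above 0, and those of the other tested members cross it.

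Counted together, 0 of the 8 tested members passed an FDR of 0.1 over all AAV-Cre in limma, against 0.0444% of all 13506 entries tested. The quasi-likelihood and likelihood ratio tests of edgeR also called 0 of 8, against 0.0296% and 0.104% of entries. DESeq2 gave an adjusted p for 3 of the 8 and for 7482 of the entries. It called 0 of the 3 and 10 of the 7482, which is 0.074% of all 13506 entries. An unadjusted p below 0.05 was seen for 1, against 4.31%, and 1 of 8 did not overlap AAV-GFP, against 2.01%. The 1 member was Ccng1 (log2 FC 0.75, limma, FDR 0.991). Nothing is read from this comparison, which chose the set. For the obese label 0 of 8 passed in limma, against 0.555% of all entries. In edgeR's quasi-likelihood test 0 passed, against 0.689%, and its likelihood ratio test and DESeq2 each called Ccng1 and Trp53inp1, where they called 1.93% and 2.04% of all entries. An unadjusted p below 0.05 was seen for 2 of 8, against 9.88% of all entries, and 2 of 8 did not overlap AAV-GFP, against 14.5%. For the nonobese label 0 of 8 passed in limma, against 0.0148% of all entries, and 0 in edgeR's quasi-likelihood test (0.0148%), its likelihood ratio test (0.0444%) and DESeq2 (0.0148%). There 0 had an unadjusted p below 0.05, against 2.27%, and 1 of 8, Ccng1, did not overlap AAV-GFP, against 9.72% of entries.

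Between the nonobese and the obese label 0 of 9 passed in limma, against 0.948% of all entries, and 2 had an unadjusted p below 0.05, against 11.4%. Ccng1 and Trp53inp1 were the 2 members whose groups did not overlap, against 13.3% of entries, and the other 7 had a limma FDR of 0.71 to 0.996. The quasi-likelihood test called 0, against 1.04% of entries, the likelihood ratio test 1 (Trp53inp1), against 2.95%, and DESeq2 2, against 2.88%. Without Atm, which chose the set, the median log2 FC of the other 8 members to AAV-GFP was 0.37 with the obese label and −0.07 with the nonobese label, beside −0.04 and −0.02 over all entries. Of these 8, 4 and 3 lay above 0, so that the members did not share a direction. Both comparisons with AAV-GFP share the same 3 control libraries.

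Per kilobase of exon, the order of the members in AAV-GFP was Mdm2 (9.50 ± 1.48, SD, n = 3), Phlda3, Ccng1 (7.11 ± 0.31), Bax, Atm (2.94 ± 0.89), Trp53inp1, Gadd45a, Trp53 (1.50 ± 0.67) and Cdkn1a (0.486 ± 0.459). The libraries of neighbours in this order overlapped except those of Gadd45a and Trp53. In the obese-labelled mice Ccng1 had the highest level per kilobase, at 17.3 ± 4.03. Over the 9 libraries the highest Pearson correlation between 2 members was 0.717, for Ccng1 and Trp53inp1, and the lowest was −0.495, for Bax and Phlda3, both given as descriptions over libraries that share the group structure.

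Beyond the 9 members, the wider pathway was described with 5 lists that together held 149 genes, of which 124 had an entry: 20 damage sensors and kinases, 32 repair genes, 20 regulators of p53, 33 p53 targets and 19 apoptosis genes. For the obese label 1 of the 124 passed in limma, against 0.555% of all entries. It was Ppp1r13b, and it was lower. Of the 124, 6 (4.84%) had an unadjusted p below 0.05, against 9.88% of all entries. Ppp1r13b encodes ASPP1, a cofactor that directs p53 to apoptosis genes (ENSMUSG00000021285, chr12:111828457-111908110). Its signal was 105.2, 92.1 and 83.3 in AAV-GFP, 35.1, 48.1 and 38.6 with the obese label, and 78.9, 58.1 and 63.6 with the nonobese label. All 6 AAV-Cre libraries lay below the 3 AAV-GFP libraries, as they did for 1.08% of all entries. The log2 FC was −1.19 with the obese label (SE 0.26, limma, FDR 0.0414), also called by both edgeR tests and by DESeq2. The call was lost without any 1 of the AAV-GFP libraries or without obese-labelled replicate 1 or 3, over a limma FDR range of 0.0037 to 0.265. Without replicates 1 and 3 together the log2 FC was −0.94 (limma, FDR 0.267).

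The p53 target list had medians near 0 in both AAV-Cre groups, over the genes that were measured. It named 43 genes, of which 33 had an entry. Bbc3, Pmaip1, Fas, Eda2r and Gdf15 were among those without one. The 33 also held relatives of the members, such as Cdkn1b, Ccng2, Gadd45g and Trp53inp2. A response in the unmeasured targets could not be seen. The median log2 FC of the 33 targets with the obese label was −0.06, and with the nonobese label it was 0.02. The mean log2(signal + 1) of the 33 was 3.61 to 3.76 in AAV-GFP, 3.45 to 3.75 with the obese label and 3.54 to 3.74 with the nonobese label. The medians of the other lists with the obese label were −0.04 for sensors and kinases, −0.21 for repair, 0.13 for regulators and 0.28 for apoptosis. Over all AAV-Cre 0 of 124 passed in limma or edgeR, against 0.0444% of all entries in limma, and DESeq2 called 0 of the 56 to which it gave an adjusted p. An unadjusted limma p below 0.05 was seen for 4 (3.23%), against 4.31% of all entries. For the nonobese label 0 of 124 passed in limma, edgeR or DESeq2, against 0.0148% in limma, and 2 (1.61%) had an unadjusted p below 0.05, against 2.27%.

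Some genes of these lists had the smallest unadjusted p without passing. Brca2, a gene of homologous recombination, had a signal of 7.23, 13.6 and 3.69 in AAV-GFP and of 8.92 to 32.5 in AAV-Cre (all AAV-Cre, log2 FC 1.24, SE 0.49). Diablo, a mitochondrial activator of caspases, had a median of 8.23 in AAV-GFP and values of 16.4, 31.7 and 18.8 with the nonobese label (log2 FC 1.17), with the groups apart. In that comparison 4.57% of all entries were apart in the same direction. Xrcc4, of end joining, had a log2 FC of −1.22 in the same comparison. Atrip, the partner of the kinase Atr, had 42.9, 23.0 and 18.1 in AAV-GFP and was below all of these in each AAV-Cre library, at 3.18 to 17.7 (all AAV-Cre, log2 FC −1.19). The same held for 1.08% of all entries.

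Between both AAV-Cre groups 0 of 124 passed in limma, against 0.948% of all entries. Of the 124, 14 (11.3%) had an unadjusted p below 0.05, against 11.4% of all entries. DESeq2 called 2 of the 124, against 2.88% of all entries: Btg2 and Trp53i11, both lower with the nonobese label. The likelihood ratio test called Btg2, against 2.95% of entries, and the quasi-likelihood test called 0, against 1.04%. Btg2, an antiproliferative immediate early gene that p53 can induce, had a signal of 4.24, 8.04 and 2.72 in AAV-GFP, 27.4, 19.3 and 9.76 with the obese label, and 4.02, 3.14 and 4.05 with the nonobese label. The obese-labelled libraries lay above the rest, and the log2 FC of nonobese over obese was −1.96 (SE 0.68, limma, FDR 0.237). In this direction both AAV-Cre groups were apart for 6.65% of all entries. Bcl2l11, which encodes the proapoptotic protein Bim, had 0, 0 and 2.35 with the nonobese label and at least 4.54 in each obese-labelled library (limma, FDR 0.246). Trp53i11, a p53-inducible transmembrane protein gene, had a log2 FC of −0.69 (limma, FDR 0.172).

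**Figure D3:**
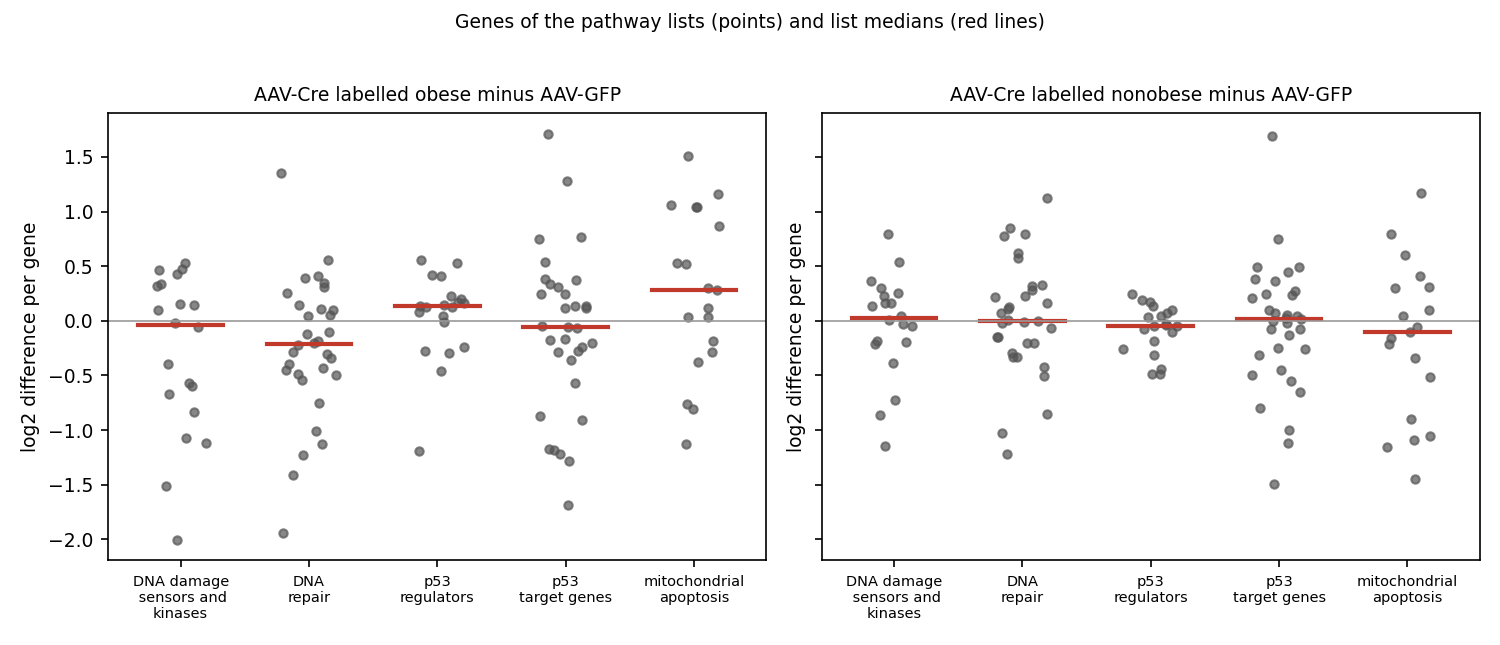
Log2 FC to AAV-GFP on the log2(signal + 1) scale for the 124 measured genes of the 5 pathway lists, with 1 point per gene, a red line at each median and the obese and nonobese labels in separate panels. The medians of the 5 lists lie between −0.21 and 0.28, and Ppp1r13b (−1.19) is the 1 gene that passed an FDR of 0.1.

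The AAV-Cre libraries differed widely in Cre signal, at 1330, 8557 and 234.9 with the obese label and 4644, 5136 and 7064 with the nonobese label, so that each member was also fitted on log2(Cre + 1) in these 6 libraries. One of the 9 members passed in limma, against 3.46% of the 13339 entries tested, and 2 had an unadjusted p below 0.05, against 13.3%. Trp53inp1 fell by 0.48 per doubling of Cre (SE 0.13, FDR 0.0338). Over the 6 libraries its Pearson r was −0.796 (exact permutation p = 0.0681) and its Spearman rho −0.486 (exact permutation p = 0.356). Without the 2 libraries farthest from the median Cre level, r over the other 4 was 0.65, so that the negative relation rests on those 2.

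Those 2 libraries were obese-labelled replicates 1 and 3, which also had the high interferon and leukocyte marker levels and lacked Agrp reads. Low Cre and these differences therefore cannot be told apart. Neuron and mediobasal hypothalamus markers also moved with Cre. In limma 4 of 8 and 5 of 11 rose at an FDR below 0.1, against 1.36% of all entries. A slope below 0 was seen for 1 of the 8 and 4 of the 11. The part of these markers in the slopes of the members and pathway genes was not tested. With the weight label as a term the Trp53inp1 slope was −0.33 (limma, FDR 0.379), and without replicate 3 alone it was −0.25 (FDR 0.893). Each weight label held 3 libraries, too few for a relation within it. Ccng1 had a slope of −0.24 (limma, FDR 0.246) and an r of −0.799 (exact permutation p = 0.0431), which turned to 0.483 without the same 2 libraries.

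Mdm2 and Atm did not follow Cre downward. Mdm2 had a slope of 0.17 (SE 0.089, limma, FDR 0.424), with a Pearson r of 0.914 (exact permutation p = 0.0056) and a rho of 0.829 (exact permutation p = 0.0583). Its r without the 2 farthest libraries was 0.924. Atm had a slope of 0.03 (limma, FDR 0.910), with an r of 0.191 (exact permutation p = 0.65). Trp53, Cdkn1a, Gadd45a, Phlda3 and Bax had a limma FDR of 0.695 to 0.94.

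**Figure D4:**
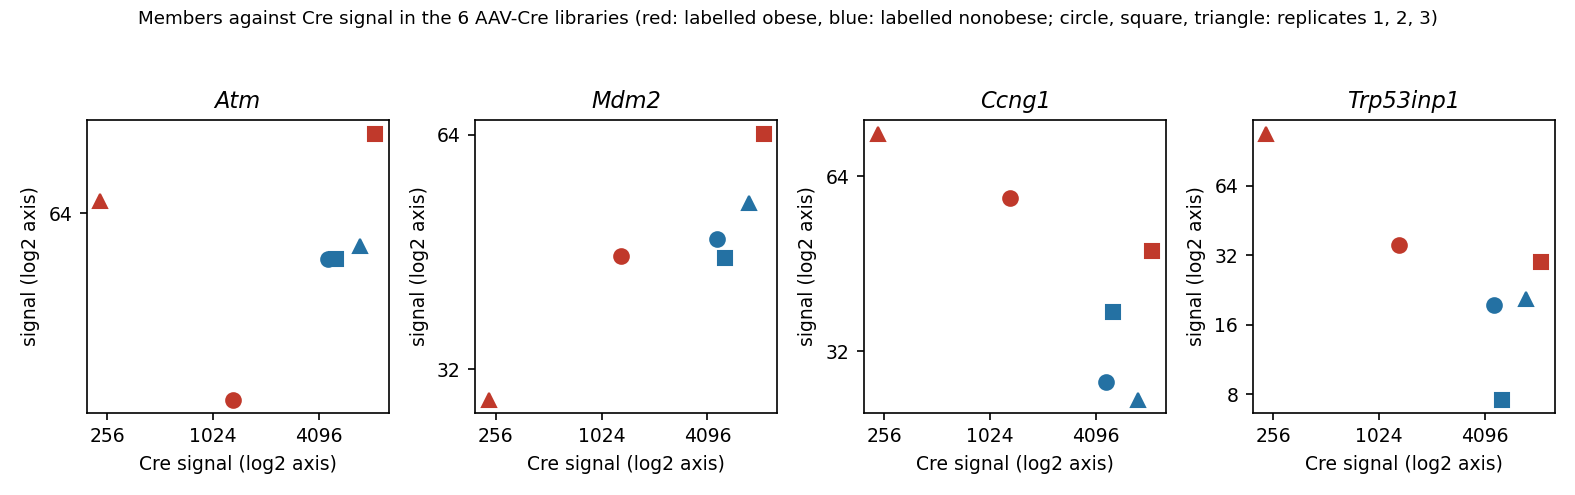
Signal of Atm, Mdm2, Ccng1 and Trp53inp1 against Cre signal in the 6 AAV-Cre libraries, both axes on a log2 scale, 1 panel per gene, with points coloured by weight label. Trp53inp1 falls by 0.48 per doubling of Cre over all 6 libraries, and the 2 libraries at the lowest Cre, 234.9 and 1330, carry the obese label.

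Among the 124 pathway genes, 123 entered this fit and 2 passed in limma, both rising with Cre, against 3.46% of all entries. Of the 123, 9 (7.32%) had an unadjusted p below 0.05, against 13.3% of all entries. Tdp2, which removes trapped topoisomerase from DNA ends, had a signal of 7.65, 10.9 and 0.232 with the obese label and 18.4, 23.8 and 12.8 with the nonobese label (slope 0.71, SE 0.20, FDR 0.0451). Polb, the polymerase of base excision repair, had 21.8, 38.1 and 10.7 and then 47.6, 46.4 and 42.3 (slope 0.39, SE 0.11, FDR 0.0425). With the weight label as a term neither passed (limma, FDR 0.281 and 0.279), where 0.757% of all entries did. Without replicates 1 and 3 labelled obese both slopes turned negative, at −1.05 and −0.34. Both calls were also lost without obese-labelled replicate 3 alone (limma, FDR 0.90 and 0.711) and without nonobese-labelled replicate 1 (FDR 0.126 and 0.12).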

How the data were processed

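The authors captured RNA from 9 mice, made stranded libraries and, per the labels and the submitters' processing notes, used CASAVA 1.7, TopHat2 2.0.11, HTSeq, edgeR and limma on GRCm38. The deposited values are signal: CPM scaled by TMM library factors, from which whole reads were recovered for 100% of values (tolerance 0.01). CPM had been assumed in the design; the same test was used. Here limma 3.58.1 (R 4.3.3) was fitted to log2(signal + 1) with a variance trend over the 3 groups, for the 13506 entries that reached a signal of 1 in 3 or more libraries, and p-values were adjusted by Benjamini-Hochberg over all of them. All AAV-Cre is the mean of both AAV-Cre group means. Calls are at an FDR of 0.1. edgeR 4.0.16 and DESeq2 1.42.0 were run on recovered reads, and scripts were tested on simulated data. Cre relations were tested by exact permutation over 720 orderings, two-sided, and their p-values are unadjusted over the 9 relations, beside the limma FDR over all entries. The limma p-values set each difference against the spread of libraries within groups, or around the line for the slope, moderated over all entries. Each mouse gave 1 library, so that mouse, captured site and library preparation are not separated in this spread. Floors cover counting error only. The members and lists were chosen with earlier results of these data known. Named beside the members were the pathway genes that passed, or in their absence those with the smallest p per comparison, and the entries most correlated with Atm and Cdkn1a. Annotation was GENCODE M21, which matched 13446 of 13586 Ensembl entries.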

Additional observations from a re-analysis of the deposited data

How the results depend on the processing

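The count of all entries passing an FDR of 0.1 moved more than the members did. With the obese label it was 75 as reported, 34 at a pseudocount of 0.1, 143 at 5, 275 in DESeq2, 260 in edgeR's likelihood ratio test (chosen after seeing the data), and 44 without obese-labelled replicates 1 and 3, where the remaining library is assumed to vary like the other groups. Between both AAV-Cre groups the counts were 128, 70, 214, 389, 398 and 72 in the same order. Over all AAV-Cre they were 6, then 10 in DESeq2, 14 in the likelihood ratio test and 3 with AAV-Cre as one group (also chosen afterwards). With the nonobese label they were 2, then 1 at a pseudocount of 0.1 and 6 in the likelihood ratio test. For the slope on Cre they were 462, then 101 with the weight label and 4 without both libraries. Leaving out each library in turn gave shares of 0.0594 to 5.27% of entries with the obese label, 0.00742 to 0.0223% with the nonobese label, 0.0223 to 0.571% over all AAV-Cre, 0.0149 to 6.72% between both AAV-Cre groups and 0.848 to 3.41% for the slope. The highest share with the obese label was that without obese-labelled replicate 2.

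Over all entries same-numbered libraries did not deviate together (r −0.0199 to 0.0897). The paper describes the AAV-GFP controls as matched by region, without saying which mice were matched. The mean of the mediobasal hypothalamus markers was lowest in replicate 3 of each group. It was 3.09 there in AAV-GFP, 3.15 with the obese label and 3.70 with the nonobese label. A pairing by region was not tested. With a replicate block the count was 200 with the obese label and 271 between both AAV-Cre groups, Ccng1 passed with the obese label (FDR 0.0878) and Trp53inp1 between the groups (FDR 0.067).

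Apart from 3 slopes that had passed (Trp53inp1, Tdp2 and Polb), directions turned only for values that had not passed. The cause was not tested. Trp53 turned at a pseudocount of 0.1 over all AAV-Cre (−0.057) and in the slope (−0.049), and with the nonobese label at 5 (0.17) and in edgeR and DESeq2 (0.64). Between the groups Atm was 0.020 after centring, and Gadd45a 0.038 after centring, 0.35 at 0.1 and 1.76 without replicates 1 and 3. Without those 2, Mdm2 was 0.21 over all, 0.42 with the obese label and −0.42 between groups, and the slopes of Ccng1 (0.45), Trp53inp1 (1.25), Tdp2 (−1.05) and Polb (−0.34) turned. Leaving out 1 library also turned a direction, over these ranges. Over all AAV-Cre Trp53 ran from −0.028 to 1.02, Mdm2 from −0.20 to 0.079 and Phlda3 from −0.61 to 0.16. With the obese label Mdm2 ran from −0.39 to 0.16, Bax from −1.01 to 0.26, Gadd45a from −1.18 to 0.18 and Phlda3 from −1.09 to 0.021. With the nonobese label Trp53 ran from −0.92 to 1.17, Cdkn1a from −0.64 to 1.30, Mdm2 from −0.11 to 0.11, Gadd45a from −1.40 to 0.028, Trp53inp1 from −0.50 to 0.17 and Phlda3 from −0.32 to 0.81. Between the AAV-Cre groups Trp53 ran from −1.79 to 0.30, Atm from −0.36 to 0.19, Cdkn1a from −1.84 to 0.10, Mdm2 from −0.16 to 0.39, Bax from −1.01 to 0.26 and Gadd45a from −0.91 to 0.74. For the slope Trp53 ran from −0.34 to 0.25, Atm from −0.015 to 0.34, Cdkn1a from −0.52 to 0.26, Bax from −0.50 to 0.22 and Phlda3 from −0.18 to 0.54.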

Other observations

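The entries whose log2(signal + 1) followed that of Atm most closely over the 9 libraries, among 11894 entries with a mean signal of at least 5, were 4833420G17Rik (Pearson r 0.922), Hnrnpd, Letm1, Gm9776 and Srpr (0.871). For Cdkn1a they were Ltbr (0.909), Rps6kl1, Ufl1, Smim11 and Mon1a (0.886). No other member was among them, and the values describe 9 libraries that share the group structure.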
